A study of Homo sapiens with 14 samples.

Results

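The report concerns 8 genes that place, copy or remove methyl groups on cytosines of DNA, of the 63677 gene IDs in the bulk RNA-seq tables. They were chosen by name: DNMT1 and UHRF1 for copying methylation, DNMT3A and DNMT3L for setting it anew, TET1, TET2 and TET3 for oxidising it, and TDG for excising the oxidised bases. Of the 8, 7 were matched to a row in the bulk tables and 7 in the table of gastruloid nuclei. The Ensembl ID that the reference pairs with UHRF1 was absent from the bulk tables. Symbols were found for 55665 of the 63677 IDs there, so UHRF1 may be listed under another ID. DNMT3L was not found in the table of nuclei. The study followed human embryonic stem cells (hESC) of the H9 line into endoderm, foregut and gastruloids, and asked how LTR5, the promoter repeat of the HERVK retrovirus family, acts on genes in these tissues. Repression of LTR5 was done by CRISPRi, in which dCAS9-KRAB, a nuclease-dead CAS9 fused to a repressor domain, is led by an sgRNA to its target, here the LTR5B consensus. The measurements were RNA-seq read counts in 12 bulk libraries, and RNA counts and accessible peaks of the nuclei of 1 gastruloid preparation.

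The bulk groups were hESC (2 libraries), endoderm expressing dCAS9-KRAB without the sgRNA (endoderm control, 3 libraries), endoderm expressing dCAS9-KRAB with it (endoderm sgRNA, 3 libraries), and foregut without and with it (foregut control and foregut sgRNA, 2 libraries each). The labels do not say whether the hESC libraries also carried dCAS9-KRAB. The carriers of dCAS9-KRAB were made with a lentivirus and selected with puromycin, and no source states that they were a single clone. Endoderm was made with 100 ng/ml Activin A for 3 days, with CHIR-99021, a GSK-3 inhibitor that activates WNT signaling, at 5 μM on the first day and 0.5 μM on the second. Foregut cells were taken through the endoderm and foregut stages of a pancreatic differentiation kit. Gastruloids, elongated aggregates that model parts of the early body plan, were formed from 800 cells per well after exposure to 3 μM CHIR-99021 and were harvested at 72 h. The methods call the RNA-seq replicates biologically independent, but no label says which cultures the libraries of a group came from, and p-values measure the spread between these libraries.

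DNA methylation is kept through cell division because UHRF1 recognises newly replicated DNA that is methylated on the old strand only and brings in DNMT1, which methylates the new strand. DNMT3A methylates DNA that carried no mark, and DNMT3L, which has no catalytic activity of its own, assists such enzymes in germ cells and early embryos. The TET dioxygenases oxidise methylcytosine in steps, and TDG cuts out its formyl and carboxyl forms, after which base excision repair restores a plain cytosine. In pluripotent cells TET1 is known as an abundant TET enzyme, and TET activity is needed for proper activation of lineage genes.

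The promoters show how differently these genes are equipped with the dinucleotide that they act on, and are given here because accessible peaks were measured over them. RefSeq (GRCh38.p14) listed 18 promoters, of 250 bases before to 50 bases after the start site, for the 7 members other than DNMT3L. In the gastruloid nuclei 16 of the 18 overlapped an accessible peak, against 58.4% of all 35116 promoters, and each of the 7 genes had at least 1 such promoter, against 60.6% of 27305 genes. The exceptions were 1 of the 3 promoters of UHRF1 and 1 of the 2 of TET2. Promoters of DNMT3A, UHRF1 and TET1 in part overlapped each other and shared a peak, so the 18 are not separate counts. CpG dinucleotides numbered 20 or more in 12 of the 18 promoters and in 41.2% of all promoters. The median was 14 over all promoters and 25 over those that overlapped a peak, as most member promoters did. All 3 TET1 promoters lay below both medians, with 10, 6 and 11 CpG. The 3 promoters of UHRF1 held 36, 40 and 46, those of TET3 45 and 33, and the 6 of DNMT3A 18 to 46. The accessible TET2 promoter held 35, and the single promoters of DNMT1 and TDG held 30 and 22. The 5 promoters that mark out these differences follow on GRCh38.p14, 5′ to 3′ on the strand of the gene, with CpG in capitals.
DNMT1, chr19:10194904-10195203, minus strand: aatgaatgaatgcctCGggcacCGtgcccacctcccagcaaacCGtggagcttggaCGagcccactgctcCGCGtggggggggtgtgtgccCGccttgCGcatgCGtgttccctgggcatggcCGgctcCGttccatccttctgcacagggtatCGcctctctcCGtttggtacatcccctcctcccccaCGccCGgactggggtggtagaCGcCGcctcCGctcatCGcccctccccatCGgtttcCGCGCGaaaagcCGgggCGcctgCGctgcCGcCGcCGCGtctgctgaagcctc
UHRF1 (second promoter), chr19:4909894-4910193, plus strand: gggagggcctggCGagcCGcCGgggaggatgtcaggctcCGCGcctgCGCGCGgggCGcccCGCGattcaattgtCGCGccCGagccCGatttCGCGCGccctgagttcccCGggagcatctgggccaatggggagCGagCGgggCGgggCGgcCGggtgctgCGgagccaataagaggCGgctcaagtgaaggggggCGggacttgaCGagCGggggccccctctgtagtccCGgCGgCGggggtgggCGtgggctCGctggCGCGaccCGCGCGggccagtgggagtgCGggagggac
TET1 (first promoter), chr10:68560087-68560386, plus strand: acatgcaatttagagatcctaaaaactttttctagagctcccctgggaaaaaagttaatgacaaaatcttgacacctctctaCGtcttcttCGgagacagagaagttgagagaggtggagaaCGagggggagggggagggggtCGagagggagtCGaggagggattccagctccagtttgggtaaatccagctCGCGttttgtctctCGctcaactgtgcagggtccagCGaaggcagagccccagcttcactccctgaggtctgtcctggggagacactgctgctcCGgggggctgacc
TET2 (second promoter), chr4:105146626-105146925, plus strand: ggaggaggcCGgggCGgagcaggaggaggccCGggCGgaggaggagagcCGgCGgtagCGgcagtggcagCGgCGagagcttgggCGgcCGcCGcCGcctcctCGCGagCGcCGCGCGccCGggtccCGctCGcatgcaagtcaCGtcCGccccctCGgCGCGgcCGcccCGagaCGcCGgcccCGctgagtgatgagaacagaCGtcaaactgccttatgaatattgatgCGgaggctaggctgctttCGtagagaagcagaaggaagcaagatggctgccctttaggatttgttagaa
TET3 (first promoter), chr2:73984660-73984959, plus strand: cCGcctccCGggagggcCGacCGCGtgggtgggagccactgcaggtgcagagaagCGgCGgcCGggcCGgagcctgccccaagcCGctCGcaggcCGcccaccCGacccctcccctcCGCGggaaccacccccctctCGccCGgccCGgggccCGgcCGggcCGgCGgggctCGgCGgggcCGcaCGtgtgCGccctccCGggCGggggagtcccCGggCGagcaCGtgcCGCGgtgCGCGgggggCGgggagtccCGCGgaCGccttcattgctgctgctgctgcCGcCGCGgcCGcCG

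Letters of 5 motifs were searched on both strands of every promoter. The E2F site TTTCGCGC, bound by the E2F factors that drive genes of DNA replication, was found in the promoter of DNMT1, on the opposite strand with its first base at −2 from the start site, and in the second promoter of UHRF1, on the same strand with its first base at −160. No other member promoter held it, and it was present in 0.515% of all promoters. Neither match shared a base with another of the motifs. The shorter E2F core TTCCCGC was in the first promoter of UHRF1, at −104 on the same strand and −14 on the opposite strand. It was also in the first promoter of TET3, at −132 on the opposite strand. That core was in 6.55% of all promoters, the CCAAT box CCAAT in 34.6%, the GC box GGGCGG in 45.0% and the TATA box TATAAA in 11.5%. Among the members TATAAA was found only in the second TET1 promoter. These are matches of letters, and binding was not measured.

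In the bulk libraries the groups carried markers of their names, but endoderm control also held mesoderm markers. The labels of the foregut libraries were in conflict. The titles name those libraries foregut, while their characteristics repeat entries of hESC and of endoderm without sgRNA, and they were grouped by title. TTR, a liver and foregut secretory gene, was at 0 CPM (reads of a gene per 1000000 gene reads, scaled by TMM) in hESC and endoderm, at 1540 and 1954 CPM in foregut control and at 1495 to 1989 CPM in foregut sgRNA. The endoderm factor SOX17 was at 0 CPM in hESC and at 207 to 284 CPM in endoderm control. The pluripotency factor POU5F1 was at 291 to 575 CPM in hESC, 652 to 826 CPM in endoderm control and 2.53 to 4.34 CPM in foregut control. By the test given below, all 9 definitive endoderm markers rose from hESC to endoderm control. Of 10 pluripotency markers 6 fell and 2 rose in that step. Of 8 mesoderm markers tested 6 rose and 0 fell (median log2 fold change 6.18), so endoderm control was not marked as endoderm alone. From endoderm control to foregut control, 6 of 10 foregut markers tested rose and 0 fell. Between the groups with the sgRNA, 5 of 10 rose and 2 fell. Depth was 11583063 to 37152434 gene reads per library, and a gene without a read could have stood at up to 0.0770 to 0.252 CPM (3 reads). The foregut libraries had 20811663 to 37152434 reads, against 11583063 to 23539769 in the others, but held reads in 15005 to 17926 genes, against 19678 to 20973. Mitochondrial reads were 17.6 to 34.7% of the gene reads in foregut, 8.30 to 14.4% in endoderm and 16.9 to 25.5% in hESC. The foregut libraries were deposited apart from the rest, so stage and batch cannot be told apart between foregut and endoderm.

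Of the 7 members with bulk counts, 3 passed the test (edgeR quasi-likelihood, Benjamini-Hochberg adjusted p under 0.05) in endoderm control against hESC, with TET2 higher and TET3 and TDG lower. In that comparison 37.9% of all 20818 genes tested were called, so 3 of 7 is near the background. In foregut control against endoderm control 3 of the 7 passed, TET1, DNMT1 and TDG, all lower, beside 33.9% of 21466 genes. In foregut sgRNA against endoderm sgRNA, which shares no library with the former comparison, 2 of 6 tested members passed, TET1 and DNMT1, both lower, beside 29% of 20735 genes. By edgeR none of 7 members passed in endoderm with against without the sgRNA, where 0.0343% of 20407 genes did, and none of 6 in foregut, where 0.165% of 20044 genes did. A change of the sgRNA effect from endoderm to foregut, tested as an interaction, was called for none of 7, beside 0.194% of 22708 genes. The calls of members in foregut against endoderm were the same when mitochondrial genes were left out. The endoderm control libraries enter 4 of these 6 comparisons, the interaction included, so those are not independent. In bulk RNA a smaller share of cells of a type and less RNA per cell cannot be told apart.

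**Figure D1:**
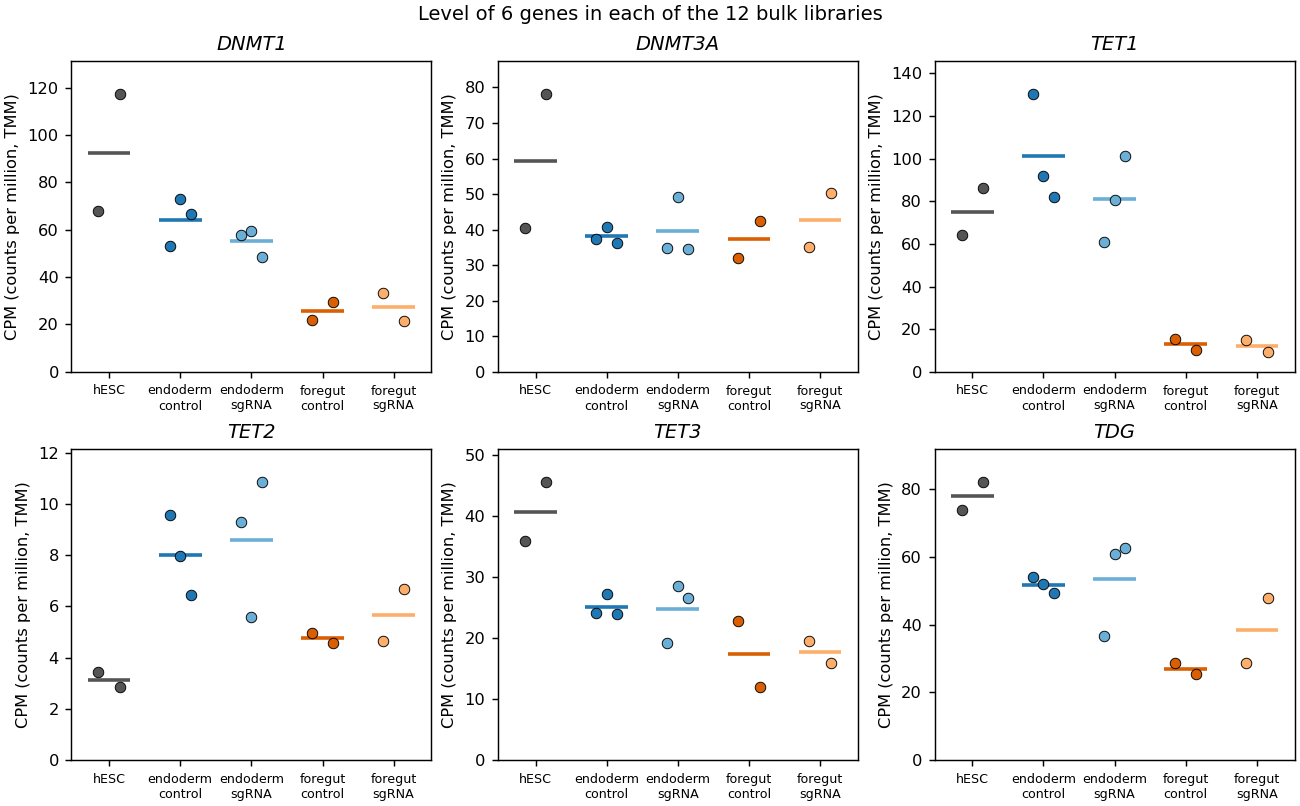
Level of 6 members in each of the 12 bulk libraries, in CPM scaled by TMM on linear axes that start at 0; each point is a library and each bar the mean of its group. TET1 lies between 9.52 and 15.5 CPM in the 4 foregut libraries and at 61.0 CPM or above in the other 8.

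DNMT1, the maintenance methyltransferase (GRCh37, chr19:10244018-10341962, minus strand), was at 67.8 and 117 CPM in hESC, and at 53.1, 73.1 and 66.6 CPM in endoderm control. These groups overlapped, and the difference did not pass (log2 fold change −0.49 ± 0.23 SE, adjusted p = 0.106). In foregut control it was at 21.8 and 29.5 CPM, below every endoderm control library. The fall was 1.33 ± 0.25 SE on the log2 scale (fold 0.399, adjusted p = 0.00366). With the sgRNA, endoderm held 57.8, 59.7 and 48.5 CPM and foregut 33.1 and 21.4 CPM, again with no overlap (log2 fold change −0.99 ± 0.27 SE, adjusted p = 0.0284). The call in the control libraries held in all 13 alternative settings, whereas that with the sgRNA was lost without endoderm sgRNA library 1 (adjusted p = 0.0690), 2 (0.0910) or 3 (0.0610), over a range of 0.00134 to 0.0910 across its alternatives. The call against hESC was gained without hESC library 1 (log2 fold change −0.83, adjusted p = 0.0347, in a range of 0.0347 to 0.893). S1PR2 overlaps exons of DNMT1 on the same strand and held at most 70 reads in a library, so reads of the overlap may have been split.

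DNMT3A, the de novo methyltransferase of the set (GRCh37, chr2:25450724-25565459, minus strand), had the smallest fitted difference between endoderm and foregut of the 6 members with measurable levels. It was at 40.5 and 78.05 CPM in hESC, and at 37.4, 40.75 and 36.1 CPM in endoderm control. It was at 32.05 and 42.55 CPM in foregut control, values on either side of the range of endoderm control (log2 fold change −0.03 ± 0.23 SE, adjusted p = 0.921). The libraries with the sgRNA ranged from 34.6 to 49.15 CPM in endoderm and from 35.2 to 50.4 CPM in foregut, and these ranges overlapped too (0.15 ± 0.27 SE, adjusted p = 0.690). Against hESC the difference in endoderm control was −0.60 ± 0.24 SE (adjusted p = 0.0567). The hESC libraries stood far apart, and the lower of them lay within the range of endoderm control. The call was gained without hESC library 1 (log2 fold change −1.003, adjusted p = 0.0103) and without endoderm control library 1 (−0.59, adjusted p = 0.00851), in a range of 0.00851 to 0.856 over all alternatives.

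DNMT3L, the inactive partner (GRCh37, chr21:45666222-45682099, minus strand), was at the limit of detection. It held 3, 2 and 2 reads in the endoderm control libraries, 1, 2 and 1 in endoderm sgRNA, and 0 in each hESC and foregut library. It was tested in the comparisons with endoderm control only because 1 library reached 3 reads, and no fold is given at this depth. The edgeR test did not call it, while voom called it in both comparisons of endoderm control with another stage.

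TET1 (GRCh37, chr10:70320094-70454244, plus strand) showed the largest fitted differences among the members with measurable levels. It was at 64.1 and 86.1 CPM in hESC, and at 130.2, 91.9 and 82.1 CPM in endoderm control, so these groups overlapped (log2 fold change 0.47 ± 0.22 SE, adjusted p = 0.114). In foregut control it was at 15.5 and 10.2 CPM. The foregut libraries lay far below every endoderm library, and the fall was 2.98 ± 0.31 SE on the log2 scale (fold 0.126, adjusted p = 0.000152). With the sgRNA the same pair of stages stood at 61.05, 80.6 and 101 CPM and at 15.05 and 9.52 CPM, again without overlap (log2 fold change −2.68 ± 0.33 SE, fold 0.156, adjusted p = 0.000976). The 2 calls held in all 13 alternative settings of each comparison. The processed pseudogene COX20P1 lies in an intron of TET1 and held at most 215 reads in a library.

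TET2 (GRCh37, chr4:106067032-106200973, plus strand), which unlike its relatives has lost the CXXC DNA-binding domain to a neighbouring gene, was the lowest TET in the bulk libraries and the only member that edgeR called higher in any comparison. It was at 3.42 and 2.84 CPM in hESC and at 9.57, 7.97 and 6.44 CPM in endoderm control. All 3 endoderm libraries lay above both hESC libraries (log2 fold change 1.39 ± 0.29 SE, fold 2.61, adjusted p = 0.00126), and the call held in all 13 alternative settings. In foregut control it was at 4.97 and 4.57 CPM, between the former groups, and did not pass against endoderm control (−0.75 ± 0.33 SE, adjusted p = 0.108). With the sgRNA the values were 9.30, 5.59 and 10.8 CPM in endoderm and 4.64 and 6.68 CPM in foregut, which overlapped (−0.57 ± 0.43 SE, adjusted p = 0.323).

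TET3 (GRCh37, chr2:74212037-74335303, plus strand), known for oxidising the paternal genome in the zygote, was at 35.8 and 45.5 CPM in hESC and at 24.2, 27.2 and 23.9 CPM in endoderm control. The groups did not overlap, and the fall was 0.66 ± 0.20 SE on the log2 scale (fold 0.632, adjusted p = 0.0145). That call was lost without hESC library 2 (adjusted p = 0.155) or endoderm control library 3 (0.0529), in the fit of all 12 libraries (0.109) and with the replicate number as a block (0.0644), in a range of 0.00194 to 0.155. In foregut control it was at 22.8 and 12.0 CPM, which did not differ from endoderm control beyond the spread (−0.53 ± 0.31 SE, adjusted p = 0.205), although without foregut control library 1 the difference was −1.08 and passed (adjusted p = 0.0107, in a range of 0.0107 to 0.810). With the sgRNA the values were 19.25, 28.5 and 26.6 CPM in endoderm and 19.6 and 15.9 CPM in foregut (−0.45 ± 0.28 SE, adjusted p = 0.243).

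Because the TET enzymes perform the same reaction, their mRNAs were also set side by side per kb of the canonical transcript. TET1 made up 66.7 to 68.75% of the summed TET level in hESC and 75.6 to 81.85% in endoderm control. In foregut control TET1 made up 40.0 to 41.95%, and TET3 43.2% on average. The mean share of TET2 was 2.92% in hESC, 6.1996% in endoderm control and 15.8% in foregut control. TET1 thus held most of the TET mRNA in hESC and endoderm and about as much as TET3 in foregut. Foregut with the sgRNA had the like make-up, with TET1 at 33.0 to 42.6%, TET2 at 18.2% and TET3 at 44.03% on average. These shares are descriptions and were not tested.

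**Figure D2:**
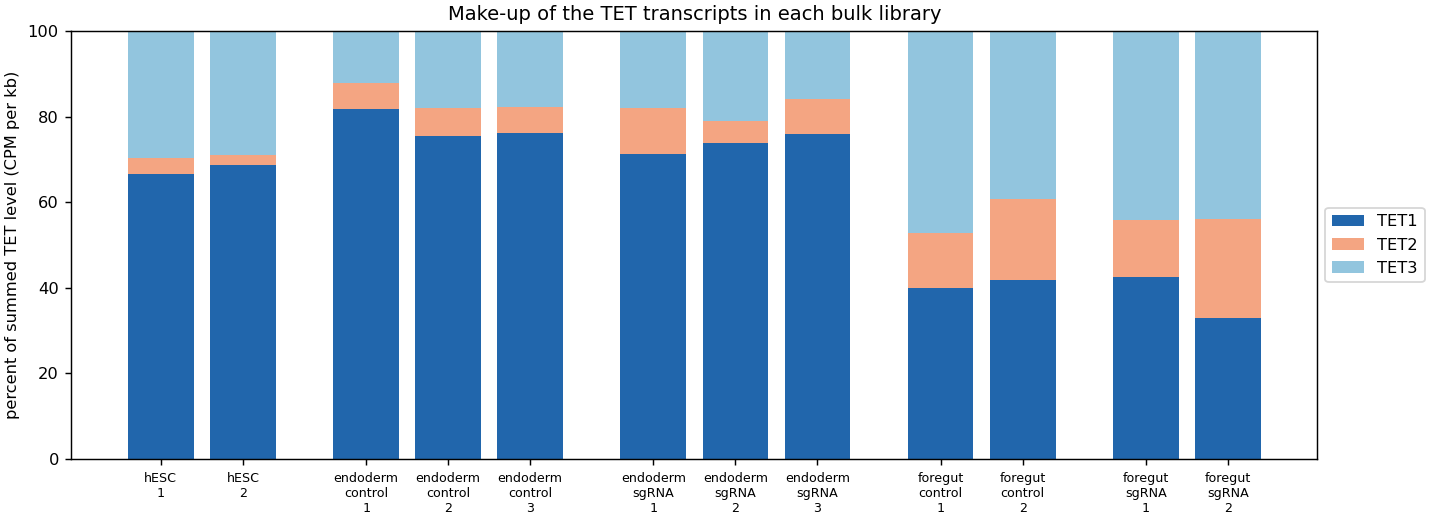
Share of TET1, TET2 and TET3 in the summed TET level (CPM per kb of canonical transcript) in each of the 12 bulk libraries, in percent. TET1 holds 66.7% or more in the 8 libraries of hESC and endoderm and at most 42.6% in the 4 foregut libraries.

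TDG, the glycosylase (GRCh37, chr12:104359600-104382652, plus strand), fell at both steps in the control libraries. It was at 73.8 and 82.0 CPM in hESC, at 54.2, 51.9 and 49.2 CPM in endoderm control, and at 28.6 and 25.3 CPM in foregut control. None of these groups overlapped. The fall was 0.56 ± 0.18 SE on the log2 scale from hESC to endoderm control (fold 0.681, adjusted p = 0.0227) and 0.94 ± 0.22 SE from endoderm control to foregut control (fold 0.521, adjusted p = 0.00903). With the sgRNA the spread was wider, with 36.5, 60.9 and 62.7 CPM in endoderm and 28.6 and 48.0 CPM in foregut, and the stages overlapped (−0.45 ± 0.33 SE, adjusted p = 0.313). The first call was lost without hESC library 1 (adjusted p = 0.0576) or 2 (0.124), without endoderm control library 2 (0.0768) or 3 (0.0978), in the fit of all 12 libraries (0.145) and with the replicate number as a block (0.112), in a range of 0.00197 to 0.145. The second was lost without endoderm control library 2 (0.0553), in a range of 0.000479 to 0.0553.

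Per kb of transcript the order of the members in hESC was TDG (24.5 CPM per kb), DNMT1 (17.5), TET1 (7.81), DNMT3A (6.29), TET3 (3.37) and TET2 (0.326), as group means. TET1 and DNMT3A, neighbours in that order, overlapped between libraries. In endoderm control TET1 stood at 10.55 CPM per kb, below TDG (16.3), above DNMT3A (4.05), and overlapping between libraries with DNMT1 (12.2). In foregut control TDG (8.48), DNMT1 (4.86) and DNMT3A (3.96) led, and TET3 (1.45), TET1 (1.34) and TET2 (0.497) followed. DNMT1 and DNMT3A overlapped between the foregut control libraries, and so did TET3 and TET1.

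**Figure D3:**
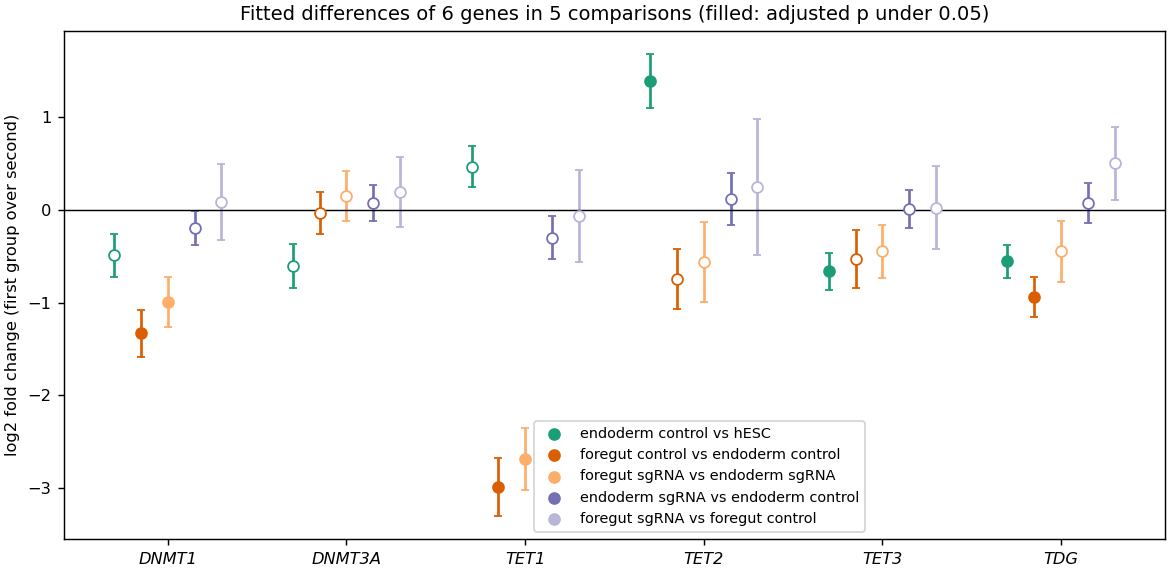
Fitted log2 fold change of 6 members in 5 comparisons, with bars of 1 standard error; filled points have an adjusted p under 0.05 (edgeR, Benjamini-Hochberg). TET1 at −2.98 and −2.68 and DNMT1 at −1.33 and −0.99 are filled in both comparisons of foregut with endoderm, and no point is filled in the 2 comparisons of the sgRNA.

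Lists of genes that work beside the members were counted in the same fits. From hESC to endoderm control 4079 of all 20818 genes rose and 3804 fell (37.9% called), and the 4 of 9 TET partners and 7 of 14 methyl donor genes called are near that share. Of 10 other writers and their partners, 7 fell and none rose from hESC to endoderm control (median log2 fold change −1.47, against 0.04 over all genes tested). PCNA, the sliding clamp of replication to which DNMT1 is tethered, averaged 69.9 CPM in endoderm control and 300.3 CPM in hESC (−2.07, adjusted p = 4.667e-07). DPPA3, which keeps UHRF1 away from chromatin, averaged 0.136 and 4.57 CPM (−4.96, adjusted p = 4.265e-07). Of 15 genes that supply the methyl donor, 14 were tested, 6 fell and 1 rose (median −0.96). MAT2A, which makes S-adenosylmethionine, averaged 15.6 CPM in endoderm control and 184.6 CPM in hESC (−3.53, adjusted p = 1.657e-07), and its regulatory partner MAT2B fell by 1.42 on the log2 scale. MTHFD1, an enzyme of the folate cycle, fell by 1.31.

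Of 10 readers of methylated DNA 6 were higher and 1 lower in that step (median 0.83), and whether this differs from the other lists was not tested. MBD1, which binds methylated CpG, rose by 1.04 (adjusted p = 0.000589) and ZBTB4 by 0.97 (adjusted p = 0.00201), while ZBTB33 (Kaiso) fell by 1.73 (adjusted p = 1.451e-05). Of 14 genes of excision and repair 6 rose and 2 fell (median 0.13). GADD45B, a stress response gene, averaged 11.2 CPM in endoderm control and 0.717 CPM in hESC (3.99, adjusted p = 5.947e-07), its relative GADD45A rose by 3.36, and the uracil glycosylase UNG fell by 2.02. Of 9 TET partners and cofactor enzymes 1 rose and 3 fell (median −0.41). PRDM14, a pluripotency factor that recruits TET enzymes, averaged 14.2 CPM in endoderm control and 51.5 CPM in hESC (−1.83, adjusted p = 4.086e-05), CXXC5 fell by 0.81, and OGA, which removes O-GlcNAc, fell by 0.92. The OGA call was lost without hESC library 1 (adjusted p = 0.0564) or 2 (0.0886), and in the fit of all 12 libraries (0.0510), in a range of 3.137e-05 to 0.0886.

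Of 18 germline genes that promoter methylation is known to silence, 8 passed the filter in that step. Among these 3 were called, 2 higher and 1 lower (median 0.11), near the 37.9% called over all genes. The proliferation lists hold none of the 8 members. In them 17 of 24 S phase genes were lower and none higher (median −1.39). The 5 of 20 mitosis genes that were lower, with none higher (median −0.05), are below the 37.9% share. Summed, the S phase genes were at 3412 to 3582 CPM in hESC and 981 to 1556 CPM in endoderm control. The mitosis genes were at 2564 to 2762 and 1855 to 2514 CPM. The part of proliferation in the differences of the members was not tested.

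From endoderm control to foregut control 3413 of all 21466 genes rose and 3869 fell (33.9% called), and with the sgRNA 2914 of 20735 rose and 3098 fell (29%). The 3 of 10 readers and 3 of 14 repair genes called in the controls lie below that share. From endoderm control to foregut control 5 of the 10 other writers fell and none rose (median −0.91, against −0.09 over all genes). UHRF2, the relative of UHRF1, averaged 9.48 CPM in foregut control and 31.5 CPM in endoderm control (−1.73, adjusted p = 0.000988), and CDCA7L, a relative of the HELLS partner CDCA7, 22.7 and 112.4 CPM (−2.31, adjusted p = 7.754e-05). Both also fell between the groups with the sgRNA (−2.40, adjusted p = 0.000702, and −2.30, adjusted p = 0.00202), where again 5 of 10 fell and none rose (median −1.58). Of the readers 1 rose and 2 fell, among them MBD1 (−1.14, adjusted p = 0.00371) and ZBTB38 (−2.34, adjusted p = 0.00159). ZBTB4 was the reader that rose (0.84, adjusted p = 0.0184), a call that was lost without endoderm control library 2 (0.0656) or 3 (0.0984), in a range of 0.000829 to 0.0984. With the sgRNA 1 rose and 3 fell, MBD1, MBD5 and ZBTB38. The calls of MBD1 and MBD5 were lost without endoderm sgRNA library 1, 2 or 3. That of ZBTB38 was lost without library 2 or 3, and those of MBD5 and ZBTB38 with the replicate number as a block.

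TET partners split in that step, with 3 of 9 higher and 4 lower. CXXC4, which carries the CXXC domain that TET2 lacks, averaged 26.6 CPM in foregut control and 0.586 CPM in endoderm control (5.44, adjusted p = 8.184e-05). It rose as well between the groups with the sgRNA (4.65, adjusted p = 0.00209), where 3 of 9 rose and 3 fell. PRDM14 was without a read in all 4 foregut libraries and averaged 14.2 CPM in endoderm control and 7.51 CPM in endoderm sgRNA. IDH2, which makes the α-ketoglutarate that TET enzymes need, averaged 291.0 and 70.7 CPM in foregut control and endoderm control (2.04, adjusted p = 0.000574). IDH1, its relative in the same list, fell between the groups with the sgRNA. It averaged 166.7 CPM in foregut sgRNA and 412.5 CPM in endoderm sgRNA (−1.275, adjusted p = 0.00378).

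Of excision and repair 1 gene rose and 2 fell in each comparison of foregut with endoderm. NEIL3, a glycosylase, fell by 2.38 in the controls (adjusted p = 0.00206) and LIG3, the ligase of base excision repair, by 1.19 in the groups with the sgRNA (adjusted p = 0.0109). Of the methyl donor genes 3 rose and 3 fell in the controls, and 2 of 14 fell with the sgRNA. TYMS, thymidylate synthase, fell in both (−2.94, adjusted p = 7.619e-05, and −3.64, adjusted p = 8.432e-05), as did SHMT2, which feeds the folate cycle (−1.72, adjusted p = 0.000197, and −1.81, adjusted p = 0.00396). Of the germline genes 1 of 8 fell in the controls and none of 8 changed with the sgRNA, where 4 were under an unadjusted p of 0.05 and DESeq2 and voom called 0 and 4.

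Of 20 mitosis genes 17 fell in foregut in the controls (median −1.61) and 14 with the sgRNA (median −1.51). Of 24 S phase genes 11 fell and 2 rose in the controls (median −0.90), while with the sgRNA 4 fell and 2 rose (median −0.58), a smaller share than the 29% called over all genes. The summed mitosis level was 847.5 to 920.4 CPM in foregut control and the S phase level 734 to 765 CPM. Of 10 pluripotency markers 8 fell and 1 rose in the controls (median −3.81). Their summed level was 759 to 1037 CPM in foregut control and 1613 to 1946 CPM in endoderm control, and the former was mostly LIN28A, named after its values were seen, at a mean of 689 CPM. Of 9 mesoderm markers 5 fell and 2 rose (median −4.43), and they summed to 41.3 to 64.9 and 95.8 to 250.5 CPM. Their part in the falls of TET1, DNMT1 and TDG was not tested.

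The sgRNA was aimed at LTR5, and in endoderm reads of LTR5_Hs and LTR5B were lower with it while those of LTR5A were higher. LTR5_Hs integrants summed to 18.5, 19.05 and 18.2 CPM in endoderm control and to 11.6, 11.9 and 13.7 CPM in endoderm sgRNA, and LTR5B to 4.94, 5.52 and 5.63 against 1.65, 3.16 and 2.94 CPM. LTR5A integrants summed to 38.3, 46.9 and 64.25 CPM in endoderm control and to 97.4, 86.0 and 107.4 CPM in endoderm sgRNA, with no overlap. In foregut LTR5_Hs was at 9.65 and 8.34 CPM without and 5.11 and 9.87 CPM with the sgRNA, and these overlapped. LTR5B did not, with 13.15 and 8.85 against 6.46 and 3.89 CPM. LTR5A overlapped in foregut, with 57.8 and 54.9 against 68.7 and 57.2 CPM. These sums were not tested.

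Against these differences in the repeats, the fitted differences of the members were small beside their errors. In endoderm the largest fitted difference among the 6 members with a measurable level was that of TET1, −0.30 ± 0.23 SE (adjusted p = 0.992), and DNMT1 followed with −0.19 ± 0.19 SE. The other 4 lay between 0.01 and 0.12. In foregut the largest was TDG, 0.50 ± 0.39 SE (adjusted p = 0.9996), which rested on 1 library of 48.0 CPM beside 28.6, 28.6 and 25.3 CPM in the other 3. The interaction, the sgRNA effect in foregut less that in endoderm, was 0.42 ± 0.40 SE for TDG (adjusted p = 0.938). No member was under an unadjusted p of 0.05 in the 2 comparisons of the sgRNA or in the interaction, and DESeq2 and voom called none. The sizes that these designs could show were limited: of 50 genes simulated with a 2-fold rise, 20 were found in endoderm and 4 in foregut, and of 50 with a 4-fold rise, 50 and 39.

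None of the other writers, readers, repair, TET partner, methyl donor, germline, S phase and mitosis genes passed in either comparison of the sgRNA by edgeR, DESeq2 or voom, and 1, PRDM14, was under an unadjusted p of 0.05 in endoderm. PRDM14 averaged 7.51 ± 1.20 CPM (SD, n = 3) with the sgRNA and 14.2 ± 3.86 CPM (SD, n = 3) without it.

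TET1 and DNMT3L were the members nearest to an LTR5 integrant. The LTR5_Hs at chr10:70285429-70286393 (GRCh37) is 33.7 kb from TET1, and held 1 read in 1 of the 12 libraries, one of endoderm sgRNA. The LTR5_Hs at chr21:45702743-45703660 is 20.6 kb from DNMT3L and held no read in any library. The nearest LTR5_Hs or LTR5B of the other 6 members was 343 kb or more away.

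The genes whose levels followed each member most closely over the 12 libraries were found by Pearson's r of log2(CPM + 0.5), given as a description over 12 libraries of 5 groups that share stage and deposit. For TET1 they were BLTP3B (0.991), TOMM20 (0.987) and ZIC5 (0.987), and for DNMT1 HERC2 (0.988), SUPT6H (0.971) and SF1 (0.970). TDG was closest to USP1 (0.989), a gene of the S phase list, TPMT (0.984) and TAF9B (0.983), and TET3 to NUP50 (0.964), PSIP1 (0.956) and CIP2A (0.954). TET2 had PLOD2 (0.908), UPK1A (0.903) and NRN1 (0.903), and DNMT3A NOL8 (0.869), MRTO4 (0.867) and CIPC (0.804). Among the members themselves DNMT1 and TET1 gave 0.846, TET3 and TDG 0.821, DNMT3A and TET1 0.0810, and DNMT3A and TET2 −0.542.

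The gastruloid nuclei allowed the members to be read cell by cell, UHRF1 among them. The table held 3646 nuclei, of which 3422 were kept, with a median of 16302 unique molecular identifiers (UMIs) and 5205 genes. This is 1 library, so values have no replicate and no test, and intervals cover counting error only. Introns are counted in nuclei, so levels are not compared between genes. Levels are given as UMIs of a gene per 1000000 UMIs (UMI CPM). DNMT1 was at 147 UMI CPM (95% exact Poisson interval 143.5 to 149.7) and UHRF1 at 73.5 (71.4 to 75.7). DNMT3A was at 49.5 (47.7 to 51.3), TET1 at 203.7 (200.04 to 207.35), TET2 at 53.0 (51.1 to 54.9), TET3 at 73.15 (71.0 to 75.4) and TDG at 95.8 (93.3 to 98.3).

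At a matched depth of 5000 UMIs, which 3197 of the 3422 nuclei reached, TET1 was seen in 60.0% of nuclei (86.6% before thinning) and DNMT1 in 49.0% (79.4%). TDG was seen in 37.4% (71.4%), UHRF1 in 29.15% (58.6%), TET3 in 26.7% (58.0%), TET2 in 22.3% (46.6%) and DNMT3A in 22.2% (51.9%). All 9 clusters held each of the 7 genes, so no cluster gave a background share for free RNA.

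The nuclei fell into 9 clusters, of which the first 4 carried listed markers among their leading genes. Cluster 0 (505 nuclei, axial mesoderm-like) led with CHRD, with NOTO, SHH, TBXT, FOXA2 and FOXJ1 above the other nuclei, cluster 1 (578, paraxial-like) with EDNRA and EBF1, cluster 2 (495, presomitic-like) with TBX6 and DLL3, and cluster 3 (336, segmenting-like) with PCDH8 and RIPPLY1. Cluster 5 (418) held SOX2, NKX1-2 and FGF8 at the highest levels but none among its leading 10, clusters 6 (110) and 7 (410) led in part with mitosis genes such as KIF18A and CCNB2, and clusters 4 (537) and 8 (33) had no listed marker among theirs. Cluster 7 was the shallowest, with a median of 7918.5 UMIs, against 14722 to 23824 in the other clusters. The 9 clusters were made from the same counts, so the values that follow describe them.

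Axial mesoderm-like nuclei had the lowest TET1, with 142 UMI CPM (135.4 to 149.5), against 200.02 to 244 in clusters 1 to 6. Cluster 7 held 170.0 (156.7 to 184.1) and the 33 nuclei of cluster 8 156 (129.8 to 186.4), an interval that overlapped that of the axial mesoderm-like nuclei. They also had lower DNMT1 (115.0, 108.8 to 121.4) and UHRF1 (44.6, 40.8 to 48.7) than the paraxial-like nuclei, which held 144 (136.6 to 152.1) and 70.7 (65.4 to 76.3). TET2 did not follow, with 61.9 (57.4 to 66.7) in axial and 64.6 (59.6 to 70.0) in paraxial-like nuclei. Clusters were not compared at a like level of the S phase genes, and the part of that list in these differences was not tested. DNMT1 was highest in the presomitic-like nuclei, 172 (163.3 to 180.4), and in cluster 5, 170.1 (160.9 to 179.8), which overlapped. TET3 was lowest in the presomitic-like nuclei, 45.3 (41.0 to 49.9), beside 55.7 (48.2 to 64.0) in cluster 7, which overlapped, and 88.2 (82.3 to 94.4) in paraxial-like nuclei. TDG was highest in presomitic-like (118, 111.1 to 125.4) and segmenting-like nuclei (118, 110.1 to 127.0), and 80.0 to 101.5 in the remaining clusters of over 100 nuclei. DNMT3A lay between 40.4 and 61.1 in the clusters of over 100 nuclei, lowest in cluster 5 (40.4, 35.996 to 45.3), which also held the lowest TET2 (35.995, 31.8 to 40.6). UHRF1 was lowest in cluster 6 (37.2, 30.2 to 45.3) and highest in cluster 4 (98.7, 92.1 to 105.6). The low DNMT3A and TET2 of cluster 5 overlapped the intervals of the presomitic-like nuclei, and the UHRF1 of clusters 6 and 4 those of clusters 0 and 5. Of the nuclei, 70 (2.05%) were called doublets and kept, 27 of them in cluster 0 and 23 in cluster 5.

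**Figure D4:**
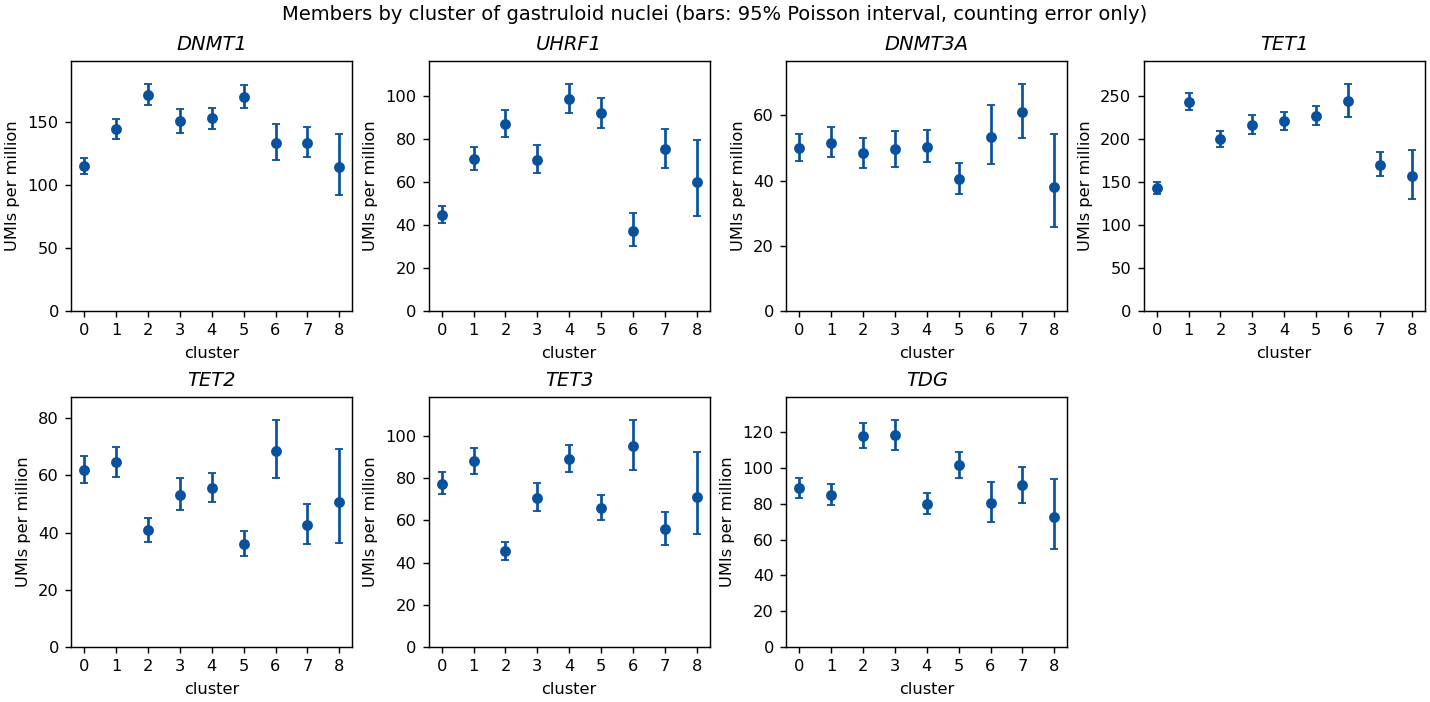
UMI CPM of 7 members in each of 9 clusters of gastruloid nuclei, with 95% exact Poisson intervals that cover counting error only and axes that start at 0. TET1 ranges from 142 in cluster 0 to 244 in cluster 6, and TET3 from 45.3 in cluster 2 to 95.3 in cluster 6.

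Because maintenance methylation accompanies replication, the nuclei were also ranked by the summed UMIs of 24 S phase genes, none of them a member, after thinning. From the lowest (0 to 5 list UMIs, 1071 nuclei) to the highest tercile (11 to 29 list UMIs, 895 nuclei), UHRF1 went from 36.2 UMI CPM (31.3 to 41.7) through 73.8 to 123 (113.1 to 133.9). DNMT1 went from 93.6 (85.5 to 102.1) through 144 to 191 (178.5 to 204.3). Both maintenance genes were thus higher with every step of the S phase list. The TET genes were lower in the highest tercile than in the lowest, with TET2 at 70.2 (63.3 to 77.7), 51.2 and 40.2 (34.6 to 46.55), TET3 at 76.9 (69.7 to 84.7), 69.4 and 56.1 (49.4 to 63.5), and TET1 at 215 (202.9 to 227.9), 214 and 182 (169.8 to 195.1). The lowest and middle terciles overlapped for TET1 and TET3. DNMT3A (53.0, 49.2 and 47.8) and TDG (91.1, 96.2 and 97.65) stayed within their counting intervals. Median depth before thinning was 17287, 16781 and 16706 UMIs in these terciles.

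Ranked by 20 mitosis genes the picture differed for the maintenance pair. UHRF1 was lowest in the highest tercile (13 to 55 list UMIs, 1021 nuclei), with 57.0 (50.6 to 63.9), beside 77.4 in the lowest and 90.4 (82.3 to 99.1) in the middle one. DNMT1 was at 112 (103.8 to 121.2) in the lowest, 161 in the middle and 153 (142.1 to 163.7) in the highest. TET1 was at 201, 201 and 214, with overlapping intervals. TET2 was at 68.3 (61.8 to 75.4) in the lowest, 42.3 (36.9 to 48.4) in the middle and 50.7 (44.7 to 57.3) in the highest tercile, so that the lowest stood above the others, and TET3 was at 75.0 (68.2 to 82.4), 65.5 and 63.1 (56.4 to 70.4). Here the depth before thinning differed, with medians of 14956, 16135 and 21443 UMIs.

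**Figure D5:**
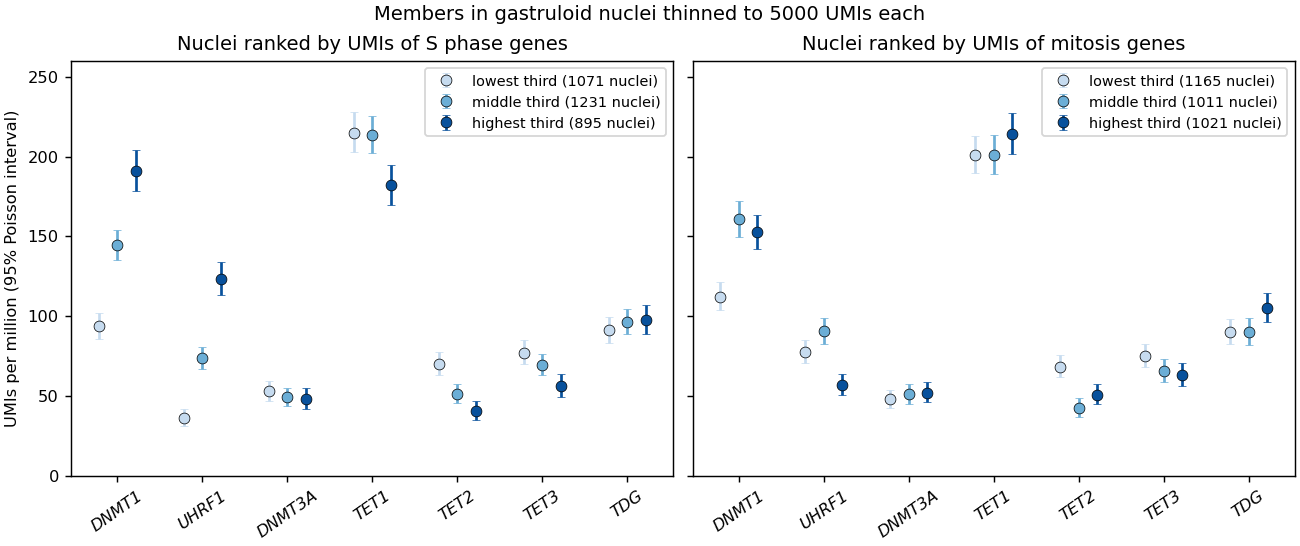
UMI CPM of 7 members in gastruloid nuclei thinned to 5000 UMIs and split into terciles by the summed UMIs of S phase genes (left) or mitosis genes (right), with 95% exact Poisson intervals. UHRF1 goes from 36.2 to 123 and DNMT1 from 93.6 to 191 across the S phase terciles, while TET2 goes from 70.2 to 40.2.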

How the data were processed

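Bulk RNA was sequenced from a stranded mRNA kit. The authors used HISAT2 on hg19 (GRCh37) and featureCounts, kept reads that mapped to 1 place, and deposited raw read counts for genes and for single TE copies. The strand setting of the counting is not given in the sources used here. For the gastruloids the authors ran Cell Ranger on hg38 and deposited UMI counts of genes in nuclei together with a list of accessible peaks, called on the whole preparation.

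Read counts were tested with edgeR 4.0.16 (R 4.3.3; quasi-likelihood F test, TMM, 2-sided) within each comparison, on genes with 3 reads or more in 1 library, and p-values were adjusted over all genes tested (Benjamini-Hochberg). A gene was called at an adjusted p under 0.05. Limma 3.58.1 (voom, the test of the study) and DESeq2 1.42.0 were alternatives, with other normalizations and filters, all libraries in 1 fit, a replicate block and each library left out. Libraries were grouped by the labels. Depth was 11583063 to 37152434 reads, and an unseen gene allows up to 3 reads. Gene symbols were found for 55665 of the 63677 IDs. Levels between genes are per kb of the canonical transcript.

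Nuclei under 1000 UMIs or 200 genes, or with over 25% of mitochondrial UMIs, were left out, and 2000 variable genes and 30 principal components were clustered by Leiden at resolution 0.5 (scanpy 1.11.5, igraph 0.11.9). Intervals are exact Poisson at 95%. Promoters are RefSeq windows of GRCh38.p14, and any overlap with a peak counted. The edgeR test of each pair of groups was run on simulated data with 200 genes changed by known folds. The interaction, DESeq2 and voom were not simulated. In endoderm control against hESC, 29 of 50 genes with a 2-fold rise were found, and 50 of 50 with a 4-fold rise, among 20818. In foregut control against endoderm control 18 and 48 were found among 21466. In foregut sgRNA against endoderm sgRNA 8 and 39 were found among 20735. Unchanged genes were called as well, 4, 25 and 15 in these comparisons. In those of the sgRNA, 13 unchanged genes were called in endoderm and 6 in foregut.

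The 8 members were described in every comparison. From each other list, up to 3 genes with the smallest p among those called with a mean of at least 1 CPM could be named, and for each member the 3 genes most like it. The members and lists were chosen with earlier results of these data known. A gene that this rule picks is not reported here.

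Replicate numbers were not taken as pairs, since no source says that they mark a shared culture.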

Additional observations from a re-analysis of the deposited data

How the results depend on the processing

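The calls of TET1 and DNMT1 in foregut control against endoderm control, of TET1 in foregut sgRNA against endoderm sgRNA, and of TET2 in endoderm control against hESC held in all 13 alternatives of each. In endoderm control against hESC the number of members called was 3, but 5 with no filter on low counts, where DNMT1 and DNMT3A joined, 1 with all 12 libraries in 1 fit, 1 with the replicate block, and 1 to 4 when a library was left out, with TET2 called in each. In foregut sgRNA against endoderm sgRNA it was 2, and 1 to 2 when a library was left out, with TET1 called in each. With 1 library left in a group, that library is taken to vary like the other groups. The other counts of members called stayed within 1.5 times their value in every alternative. The cause was not tested. Same-numbered libraries showed r of −0.06 to 0.06 between their deviations in the comparisons of endoderm and hESC, 0.17 to 0.22 between foregut and endoderm, with 2 pairs in each comparison, and −0.27 between the foregut groups, where a crossed pairing, added after seeing the data, also called no member. The replicate block changed no other count of members.

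Signs turned only for members that were not called. TET3 in endoderm with against without the sgRNA turned to −0.01231 by voom, −0.01717 with all libraries in 1 fit and −0.0123 with the replicate block. DNMT3A in foregut control against endoderm control turned to 0.03096 by DESeq2, 0.03086 with RLE size factors and 0.05689 with filterByExpr. TET3 in the interaction turned to 0.02201 by DESeq2, 0.1192 by voom, 0.02171 with RLE size factors, 0.002048 without mitochondrial genes, 0.04262 with filterByExpr, 0.04485 with all libraries in 1 fit and 0.00808 with the replicate block. With a library left out, the log2 fold changes that turned ranged as follows. In endoderm with against without the sgRNA DNMT3A ranged from −0.09579 to 0.1744, TET2 from −0.0776 to 0.3712, TET3 from −0.09036 to 0.1726 and TDG from −0.05826 to 0.2916. In foregut with against without it DNMT1 ranged from −0.2571 to 0.3625, DNMT3A from −0.09068 to 0.4364, TET1 from −0.4286 to 0.2659, TET2 from −0.04387 to 0.4898 and TET3 from −0.3678 to 0.5623. In foregut against endoderm DNMT3A ranged from −0.1842 to 0.1407 in the controls and from −0.2024 to 0.3817 with the sgRNA. In the interaction DNMT1 ranged from −0.04455 to 0.5391, DNMT3A from −0.1823 to 0.3807, TET1 from −0.1038 to 0.5915, TET2 from −0.1818 to 0.394, TET3 from −0.4089 to 0.5779 and TDG from −0.01018 to 0.7866.

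In the nuclei the ratio of the highest to the lowest cluster of at least 50 nuclei was 1.493 for DNMT1, 2.652 for UHRF1, 1.717 for TET1, 1.908 for TET2 and 2.102 for TET3. At resolution 1.0 it was 2.392, 3.987, 3.358, 15.08 and 3.323, and with no limit on mitochondrial UMIs it was 4.186 for TET1, 10.6 for TET2 and 7.214 for TET3. Both settings formed a shallow cluster, of 71 nuclei with 193088 UMIs in all and of 60 nuclei with 151608 UMIs in all, in which TET2 was lowest at 5.18 and 6.60 UMI CPM.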
